A study of Populus trichocarpa with 9 samples.

Results

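The late monolignol genes described here are PtrCCR2 (Potri.003G181400), PtrCAD1 (Potri.009G095800), PtrCAld5H1 (Potri.005G117500), PtrCAld5H2 (Potri.007G016400) and PtrAldOMT2 (Potri.012G006400). They are 5 of the 41335 genes in the deposited table and were chosen by name as the reductive end and the syringyl branch of the pathway, among 22 monolignol genes in the study's primer table. Of the 5, 4 had values high enough to be among the 7653 genes tested, and PtrCAld5H1 did not. The lowest value of those 4 in any library was 13, so none of them passed the filter through a single construct. The study's own list of wall genes that changed in these libraries holds PtrCCR2, PtrCAld5H1 and PtrAldOMT2, so the direction of those 3 in the same libraries is not independent evidence. PtrCAD1 and PtrCAld5H2 are not on that list, and since it was drawn from the same libraries, their absence is not independent evidence either.

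RNA was sequenced from protoplasts of stem-differentiating xylem (SDX), the young wood cells of the stem freed of their walls, taken from 6-month-old Populus trichocarpa trees and collected 12 h after transfection mediated by PEG. A first set of 3 libraries carried a plasmid with PtrHSFB3-1, a class B heat shock factor, and a second set of 3 carried one with PtrMYB092, a MYB transcription factor. The control set of 3 libraries, called GFP, carried a plasmid without a transcription factor. All plasmids also encoded sGFP, and the viral 35S promoter drove each transgene, so the constructs are forced expression in wall-less cells and not the activity of the genes in the stem. The libraries of a construct were described as biological replicates, without word on whether they came from separate trees.

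Monolignols are the alcohols from which lignin, the phenolic polymer of woody walls, is built. Cinnamoyl-CoA reductase (CCR) turns the CoA esters made by the earlier steps into aldehydes, and cinnamyl alcohol dehydrogenase (CAD) reduces the aldehydes to the alcohols that are exported to the wall. Between those reductions the pathway branches: coniferaldehyde 5-hydroxylase (CAld5H), a cytochrome P450, adds a hydroxyl group to the ring and the O-methyltransferase AldOMT methylates it, which leads to the syringyl units that set hardwood lignin apart from that of most conifers.

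Each transgene was high in the libraries titled for it. PtrHSFB3-1 stood at 19859, 31149 and 42965 in replicates 1 to 3 of the PtrHSFB3-1 libraries, against 67, 53 and 61 in the GFP libraries. PtrMYB092 stood at 6922, 11036 and 17727 in the PtrMYB092 libraries, against 4, 5 and 4 in the GFP libraries. These values add plasmid transcripts to those of the endogenous gene. A description field of PtrMYB092 replicates 2 and 3 names the other transcription factor, which goes against their titles. In PtrMYB092 replicates 1 to 3 the PtrHSFB3-1 transcript stood at 119, 105 and 165, far below every PtrHSFB3-1 library, so the values of both transgenes go with the titles. In the fit described below, the PtrHSFB3-1 transcript was 2.33-fold higher with PtrMYB092 than with GFP (limma adjusted p = 0.0459). Whether that rise bears on the late genes was not tested. Fits of the late and earlier monolignol genes without replicates 2 and 3 are given below all the same. Column totals were 428358 to 495579. The 7 secondary wall genes used to check the tissue (the cellulose synthase genes PtrCesA4, PtrCesA7, PtrCesA8, PtrCesA17 and PtrCesA18, with PtrIRX10-1 and PtrCslA2 for hemicelluloses) were near 0 throughout. Their highest single value was 2, and their sum was 1 to 6 in the PtrHSFB3-1 libraries, 4 to 8 in the PtrMYB092 libraries and 1 to 6 in the GFP libraries. These defining genes of secondary wall xylem were thus at or near 0 in cells labelled as differentiating xylem. In bulk RNA, fewer cells that express a gene and less RNA per cell cannot be told apart.

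The values below are the whole numbers of the deposited table unless they are called scaled. They are labelled raw counts, but low values scatter less between libraries than counts can, so their scale is unknown and no counting interval is given. Scaled values are divided by a TMM factor for each library. Log2 fold changes were fitted by limma on log2(scaled value + 1), which understates the change of low genes. A call needed an adjusted p (Benjamini-Hochberg) under 0.05, with a fold change over 2 for higher genes and under 0.8 for lower genes. Both comparisons with GFP use the same GFP libraries.

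PtrCAld5H1 and PtrCAld5H2 carry names of the same gene family, and the primers by which the study measured them by RT-qPCR differ at few bases. The RNA-seq values do not depend on these primers. The primers are shown because the study measured both genes with them, with differing bases in capitals (all sequences are written 5′ to 3′).
PtrCAld5H1 forward: aaTccaatataggcaagcctgtgaaCG
PtrCAld5H2 forward: aaGccaatataggcaagcctgtgaaTC
PtrCAld5H1 reverse: atttttGgccccAaaagctgctctA
PtrCAld5H2 reverse: atttttAgccccGaaagctgctctG
Over both primers 46 of 52 bases were identical, and each primer ends at its 3′ end on a base that differs between the pair. The genes themselves were not aligned. How the deposited table shares reads between similar genes is not given in the sources used here, so the separate values of PtrCAld5H1 and PtrCAld5H2 are uncertain.

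PtrCCR2 rose with both transcription factors, 2.88-fold with PtrHSFB3-1 and 13.4-fold with PtrMYB092, each against GFP. Its level was 4.66-fold higher with PtrMYB092 than with PtrHSFB3-1. In replicates 1 to 3, PtrCCR2 stood at 87, 76 and 68 in the PtrHSFB3-1 libraries, at 407, 318 and 430 in the PtrMYB092 libraries and at 43, 30 and 22 in the GFP libraries. The 3 sets did not overlap in any pair of constructs: every PtrMYB092 library lay above every PtrHSFB3-1 library, and every PtrHSFB3-1 library above every GFP library. A gap of the same kind was present in 20.4% of all genes tested for PtrHSFB3-1 above GFP, in 13.9% for PtrMYB092 above GFP and in 16.4% for PtrMYB092 above PtrHSFB3-1. Scaled values averaged 82.9 ± 15.7 with PtrHSFB3-1, 391 ± 70.5 with PtrMYB092 and 28.9 ± 9.51 with GFP (SD, n = 3 each).

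For PtrCCR2, the log2 fold change was 1.52 for PtrHSFB3-1 against GFP (standard error 0.27, 95% interval 0.91 to 2.13, limma adjusted p = 0.00814). It was 3.75 for PtrMYB092 against GFP (standard error 0.27, interval 3.13 to 4.36, limma adjusted p = 0.000139). Between the transcription factors it was 2.22 for PtrMYB092 against PtrHSFB3-1 (interval 1.61 to 2.83, limma adjusted p = 0.00109), so PtrMYB092 gave the higher level of PtrCCR2 by a test of that difference itself. Within equal replicate numbers, PtrCCR2 differed by 1.35, 1.44 and 1.78 on the log2 scale for PtrHSFB3-1 against GFP and by 3.41, 3.45 and 4.38 for PtrMYB092 against GFP. With the replicate block, PtrCCR2 was called for PtrHSFB3-1 against GFP (standard error 0.19, limma adjusted p = 0.0003). It was also called for PtrMYB092 against GFP (limma adjusted p = 3.81e-06) and against PtrHSFB3-1 (limma adjusted p = 2.6e-05). The call of PtrMYB092 against PtrHSFB3-1 held in all 22 alternatives, and that of PtrHSFB3-1 against GFP in all 21. Without PtrMYB092 replicates 2 and 3, which leaves a lone library assumed to vary like the others, the log2 fold change of PtrCCR2 against GFP was 3.89 and was not called (limma adjusted p = 0.0574).

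**Figure D1:**
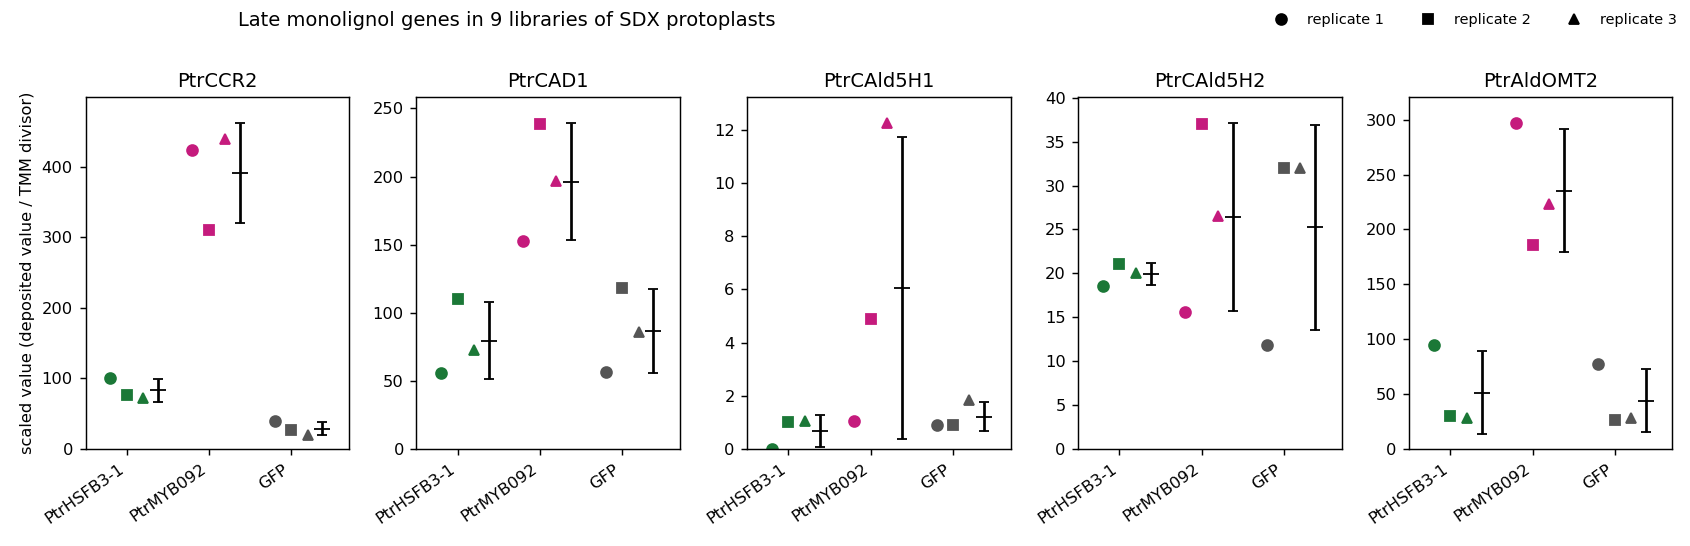
Scaled values of the 5 late monolignol genes (vertical axis, linear from 0 and different for each gene) in the 9 libraries, by construct; circles, squares and triangles are replicates 1, 2 and 3, and the bar beside them is the mean ± SD of 3 libraries. The 3 sets of PtrCCR2 do not overlap, PtrCAD1 and PtrAldOMT2 are highest in the PtrMYB092 libraries, and PtrCAld5H2 overlaps in all sets.

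PtrAldOMT2, for the methyltransferase of the syringyl branch, was high with PtrMYB092 and close to the control with PtrHSFB3-1. It stood at 82, 30 and 27 in the PtrHSFB3-1 libraries, at 285, 191 and 219 in the PtrMYB092 libraries and at 85, 29 and 31 in the GFP libraries, in replicates 1 to 3. All PtrMYB092 libraries lay above all others, whereas the PtrHSFB3-1 and GFP sets overlapped. Of all genes tested, 13.9% had such a gap for PtrMYB092 above GFP and 16.4% for PtrMYB092 above PtrHSFB3-1. Replicate 1 was the highest library within every construct. Scaled values averaged 51.2 ± 38.0 with PtrHSFB3-1, 235 ± 56.3 with PtrMYB092 and 44.0 ± 28.7 with GFP (SD, n = 3 each).

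PtrAldOMT2 had a log2 fold change of 2.54 for PtrMYB092 against GFP (standard error 0.53, interval 1.33 to 3.75, limma adjusted p = 0.0239) and of 2.38 for PtrMYB092 against PtrHSFB3-1 (standard error 0.53, limma adjusted p = 0.017). For PtrHSFB3-1 against GFP it was 0.16 (standard error 0.53, limma adjusted p = 0.873), with an interval of -1.05 to 1.37 that spans a more than 2-fold change in either direction. With the replicate number as a block, that interval for PtrAldOMT2 narrowed to -0.34 to 0.66. With the block PtrAldOMT2 was called for PtrMYB092 against GFP (standard error 0.22, limma adjusted p = 6.28e-05). The same held for PtrMYB092 against PtrHSFB3-1 (limma adjusted p = 4.66e-05). Within equal replicate numbers the differences for PtrMYB092 against GFP were 1.93, 2.76 and 2.93, all positive. Without a block, the call of PtrAldOMT2 against GFP ended without GFP replicate 2, GFP replicate 3 or any single PtrMYB092 library (limma adjusted p of 0.0712 to 0.110, log2 fold changes of 2.28 to 2.72). Also without a block, the call against PtrHSFB3-1 ended without PtrHSFB3-1 replicate 2, PtrHSFB3-1 replicate 3 or PtrMYB092 replicate 3. In those fits limma adjusted p was 0.0566 to 0.0806. Fits that leave a library out were not run with the block. Without PtrMYB092 replicates 2 and 3 together, the log2 fold changes were 2.92 against GFP and 2.76 against PtrHSFB3-1, neither called (limma adjusted p = 0.269 and 0.160).

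PtrCAD1, for the dehydrogenase that makes the alcohols, was higher with PtrMYB092 than with PtrHSFB3-1, and its difference from GFP was called only when replicate numbers were paired. PtrCAD1 stood at 48, 110 and 69 in the PtrHSFB3-1 libraries, at 147, 245 and 193 in the PtrMYB092 libraries and at 62, 129 and 94 in the GFP libraries. Every PtrMYB092 library lay above every other library, and the PtrHSFB3-1 and GFP sets overlapped. The same gap was present in 13.9% of all genes tested for PtrMYB092 above GFP and in 16.4% for PtrMYB092 above PtrHSFB3-1. Within each construct replicate 1 was the lowest and replicate 2 the highest. Scaled values averaged 79.6 ± 28.0 with PtrHSFB3-1, 196 ± 42.8 with PtrMYB092 and 86.7 ± 30.9 with GFP (SD, n = 3 each).

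For PtrCAD1, the log2 fold change of PtrMYB092 against PtrHSFB3-1 was 1.32 (standard error 0.34, interval 0.56 to 2.09, limma adjusted p = 0.0283). Against GFP it was 1.21 (standard error 0.34, interval 0.44 to 1.97, limma adjusted p = 0.0816), which was not called. With the replicate block the same difference had a standard error of 0.13 and was called higher (limma adjusted p = 0.000224). Without PtrMYB092 replicates 2 and 3 and without a block it was 0.89, not called (limma adjusted p = 0.646). Within equal replicate numbers PtrCAD1 differed by 1.43, 1.01 and 1.19 for PtrMYB092 against GFP, all positive. For PtrHSFB3-1 against GFP the paired differences of PtrCAD1 were -0.01, -0.10 and -0.24 and the fitted one -0.12 (interval -0.88 to 0.65, limma adjusted p = 0.853), which did not pass the test; with the block the interval was -0.41 to 0.18. Without a block, the call of PtrMYB092 against PtrHSFB3-1 ended without PtrHSFB3-1 replicate 1 or 3 or PtrMYB092 replicate 2 or 3. In those fits limma adjusted p was 0.0867 to 0.112. The call also ended without PtrMYB092 replicates 2 and 3 together, at a log2 fold change of 1.01. With the block and every library, PtrCAD1 was called for PtrMYB092 against PtrHSFB3-1 (standard error 0.13, limma adjusted p = 6.35e-05).

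PtrCAld5H2, a gene for the ring hydroxylase of the syringyl branch, did not pass the test in any comparison. It stood at 16, 21 and 19 in the PtrHSFB3-1 libraries, at 15, 38 and 26 in the PtrMYB092 libraries and at 13, 35 and 35 in the GFP libraries. All 3 sets overlapped, and within each construct replicate 1 was the lowest library. The PtrHSFB3-1 set was narrow, at a scaled 19.9 ± 1.26, against 26.4 ± 10.7 with PtrMYB092 and 25.3 ± 11.7 with GFP (SD, n = 3 each).

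The log2 fold change of PtrCAld5H2 was -0.21 for PtrHSFB3-1 against GFP (interval -1.13 to 0.72, limma adjusted p = 0.774) and 0.11 for PtrMYB092 against GFP (interval -0.82 to 1.03, limma adjusted p = 0.927). Between the transcription factors it was 0.31 for PtrMYB092 against PtrHSFB3-1 (standard error 0.41, limma adjusted p = 0.674). With the replicate block the interval for PtrMYB092 against GFP was -0.42 to 0.63, so a change as large as that fitted for PtrAldOMT2 lies outside it. PtrCAld5H2 was called in none of the 21 or 22 alternatives of each comparison. Its sign was not stable: without PtrMYB092 replicates 2 and 3 it was -0.52 for PtrMYB092 against GFP and -0.31 for PtrMYB092 against PtrHSFB3-1 (limma adjusted p = 0.802 and 0.791).

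PtrCAld5H1, the other hydroxylase gene, was close to 0 in every library but those of PtrMYB092 replicates 2 and 3. It stood at 0, 1 and 1 in the PtrHSFB3-1 libraries, at 1, 5 and 12 in the PtrMYB092 libraries and at 1, 1 and 2 in the GFP libraries. The PtrMYB092 and GFP sets touched, since replicate 1 of PtrMYB092 had the value of 2 GFP libraries. The gene fell under the filter on low values. The 2 libraries that stood out were those whose description field conflicts with their title, and in both the transgene values go with the title. With all 27542 genes above 0 in the fit, the log2 fold change of PtrCAld5H1 was 1.31 for PtrMYB092 against GFP (standard error 0.61, limma adjusted p = 0.412) and 1.76 for PtrMYB092 against PtrHSFB3-1 (standard error 0.61, limma adjusted p = 0.128), neither called. With the replicate block as well, an alternative added after the data had been seen, limma adjusted p was 0.0925 and 0.0183 for these comparisons, and the second was called higher.

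Counted together, 1 of the 4 late genes tested was higher with PtrHSFB3-1 than with GFP, where 7.08% of all genes tested were called higher. With PtrMYB092 against GFP, 2 of the 4 were higher, where 4.6% of all genes were, and 3 of the 4 with the replicate block, where 6.06% were. With PtrMYB092 against PtrHSFB3-1, 3 of the 4 were higher, where 4.55% of all genes were. None of the 4 was called lower in any of these comparisons, against 3.01% of all genes for PtrHSFB3-1 against GFP, 0.366% for PtrMYB092 against GFP and 9.8% for PtrMYB092 against PtrHSFB3-1. At an unadjusted p under 0.05 in limma, 0 of the 4 were lower in each comparison as well, beside 11.3%, 4.69% and 16.6% of all genes in the same order. With shares this small, 0 of 4 is near the background. The median log2 fold change of the 4 late genes was 0.02, 1.88 and 1.77 in the order of these 3 comparisons, beside medians of 0.01, -0.05 and 0.02 over all genes tested. The share of higher genes among all calls depended on scaling: for PtrHSFB3-1 against GFP it was 70.2%, or 32.2% with column totals only, which moved the median of all genes to -0.25.

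The genes of the earlier steps give the rest of the pathway. Of the other 17 monolignol genes 16 could be tested, and 16 of the 17 are on the study's list of wall genes chosen from these libraries. Their direction in the same libraries is therefore not independent evidence. PtrHCT1 and PtrHCT6 passed the filter only with the PtrMYB092 libraries counted, so their higher calls with PtrMYB092 are no support. The counts and medians of the 16 genes, and the later order by size of change, still include both. With PtrHSFB3-1 against GFP, 10 of the 16 were higher (7.08% of all genes), with a median log2 fold change of 2.20. None of the 16 was lower, which is near the share of 3.01% over all genes. With PtrMYB092 against GFP all 16 were higher (4.6% of all genes), with a median of 4.31. With PtrMYB092 against PtrHSFB3-1 9 were higher (4.55% of all genes), with a median of 1.84. With the replicate block PtrHSFB3-1 against GFP gave 14 of the 16 higher (10.2% of all genes) and 1 lower (16.9% of all genes), the acyltransferase gene PtrHCT1, and PtrMYB092 against PtrHSFB3-1 gave 12 higher (5.63% of all genes). By enzyme, PtrHSFB3-1 raised 3 of 5 PAL genes, for the ammonia-lyases that open the pathway, 1 of 2 C4H genes, both 4CL genes, 2 of the 5 genes of the HCT, C3H and CSE steps and both CCoAOMT genes tested. With the replicate block these counts were 5 of 5 PAL genes, both C4H, 4CL and CCoAOMT genes, and 3 higher and 1 lower of the 5 in the HCT, C3H and CSE steps. Without PtrMYB092 replicates 2 and 3, 15 earlier genes could be tested, and none was called for PtrMYB092 against GFP (median 4.65, all 15 above 0, limma adjusted p of 0.0598 to 0.297) and 1 for PtrMYB092 against PtrHSFB3-1 (median 2.097).

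The largest log2 fold changes with PtrHSFB3-1 against GFP among the earlier genes were those of PtrPAL5 (4.80) and PtrPAL4 (4.63), and the smallest those of PtrHCT1 (-0.63) and PtrCSE2 (0.53), of which the last pair did not pass the test. With PtrMYB092 against GFP the largest were those of PtrPAL2 (6.88) and PtrPAL4 (6.57) and the smallest those of PtrCSE2 (1.52) and PtrHCT1 (1.84). Among the 20 monolignol genes tested, ordered from the largest to the smallest change, PtrCCR2 took place 13 with PtrHSFB3-1 and place 12 with PtrMYB092, and PtrAldOMT2 places 17 and 15. PtrCAD1 and PtrCAld5H2 took places 18 and 19 with PtrHSFB3-1 and were the last pair with PtrMYB092, at places 19 and 20. Among all 7653 genes PtrCCR2 nonetheless ranked 51st and PtrAldOMT2 124th by log2 fold change with PtrMYB092 against GFP.

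**Figure D2:**
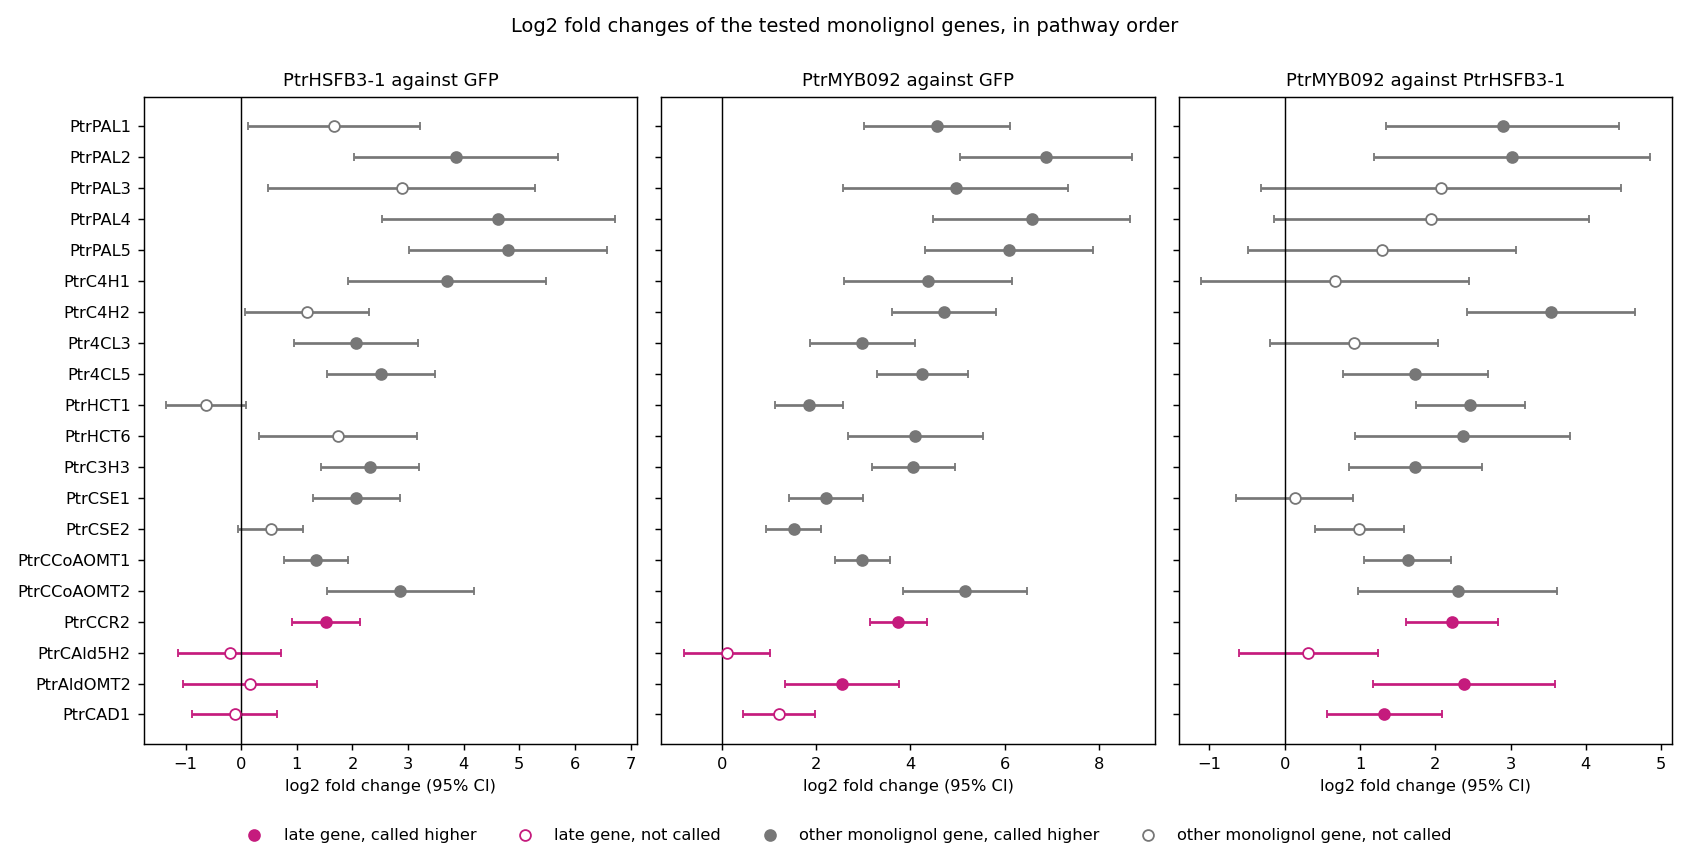
Log2 fold changes with 95% confidence intervals from limma (horizontal axis) of the 20 tested monolignol genes, listed in pathway order, for 3 comparisons of 3 libraries with 3; late genes are magenta, earlier genes grey, and filled points were called higher. PtrCCR2 is called in all 3 panels, PtrAldOMT2 in both with PtrMYB092, PtrCAD1 in PtrMYB092 against PtrHSFB3-1, and PtrCAld5H2 spans 0 in each.

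Ratios of late genes within a library compare the steps with little effect of scaling between libraries, but without gene lengths only their shift between constructs can be read. The log2 ratio of PtrCCR2 over PtrCAD1, the first over the last reduction, was 0.85, -0.53 and -0.02 in the PtrHSFB3-1 libraries, 1.46, 0.37 and 1.15 in the PtrMYB092 libraries and -0.52, -2.06 and -2.04 in the GFP libraries. It was higher in each PtrHSFB3-1 and PtrMYB092 library than in the GFP library of the same number. The log2 ratio of PtrAldOMT2 over PtrCAld5H2, both of the syringyl branch, was 2.30, 0.49 and 0.49 with PtrHSFB3-1, 4.16, 2.30 and 3.03 with PtrMYB092 and 2.61, -0.26 and -0.17 with GFP. Replicate 1 was the highest library of each construct in both ratios. These ratios are given as values without a test.

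The late genes also split by replicate number, a pattern chosen after the values had been seen. PtrAldOMT2 was higher in replicate 1 than the mean of the other replicates, by 1.22 on the log2 scale (standard error 0.19, limma adjusted p = 0.00118), and PtrCAD1 was lower, with a difference of -0.67 (standard error 0.11, limma adjusted p = 0.00163). PtrCAld5H2 was also lower in replicate 1, with a difference of -0.82 (standard error 0.20, limma adjusted p = 0.0111). PtrCCR2 had a difference of 0.45 (standard error 0.16, limma adjusted p = 0.0508) and was not called.

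Such differences were common, since 21% of all genes tested were higher and 20.3% lower in replicate 1 at an adjusted p under 0.05. Of the 16 earlier monolignol genes, 14 were higher in replicate 1 and none lower, with a median of 1.09. Within constructs, PtrAldOMT2 differed by 1.67 with PtrHSFB3-1, 0.54 with PtrMYB092 and 1.46 with GFP. PtrCAD1 differed by -0.68 with PtrHSFB3-1, -0.50 with PtrMYB092 and -0.83 with GFP. The sources used here do not say what a replicate number stands for, and its part in the comparisons above was tested only by the block and by leaving replicate 1 out. Without replicate 1 of all 3 constructs, an alternative also added after the data had been seen, PtrCCR2 and PtrAldOMT2 were called higher with PtrMYB092 against GFP, at log2 fold changes of 3.97 and 2.91, and PtrCAD1 was not, at 1.16 (limma adjusted p = 0.0649).

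**Figure D3:**
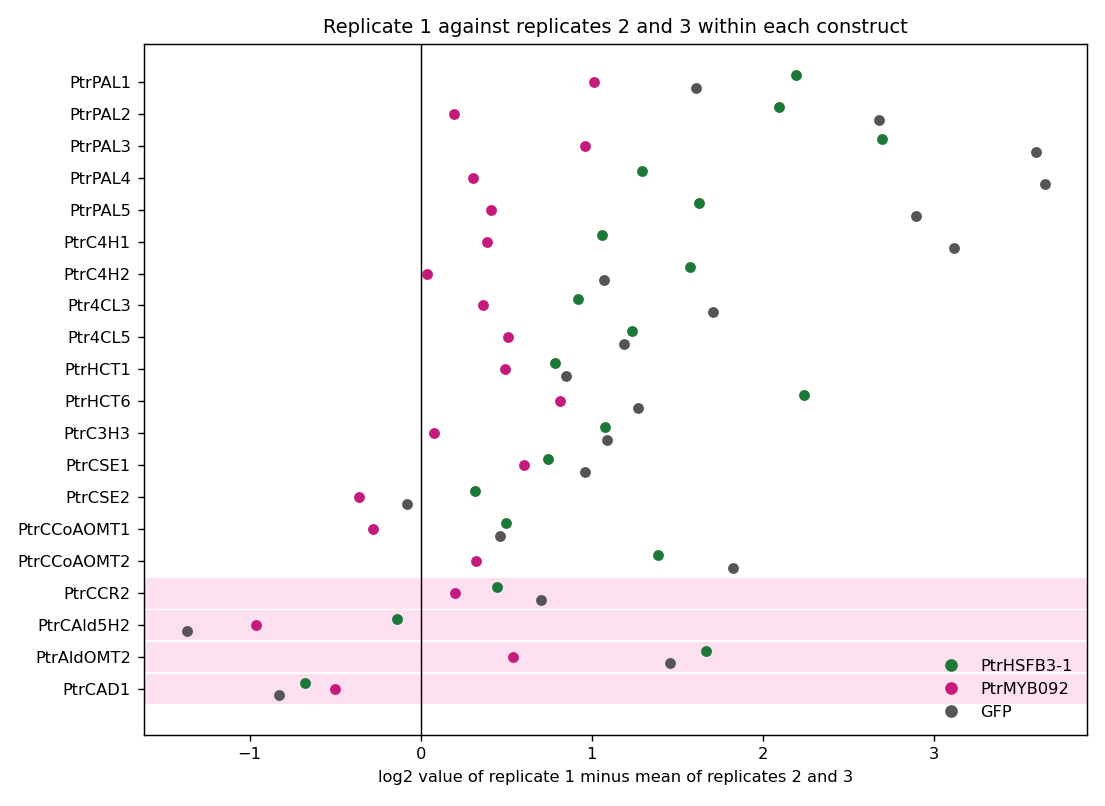
Log2 value of replicate 1 minus the mean of replicates 2 and 3 (horizontal axis) for the 20 tested monolignol genes in pathway order, with 1 point for each construct and the late genes on a shaded band. PtrAldOMT2 and PtrCCR2 lie right of 0 and PtrCAD1 and PtrCAld5H2 left of it in all 3 constructs.

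The profile of each late gene over the 9 libraries was set against the other genes with a name in the study's tables, by the mean absolute difference of log2 values after each gene was centred on its own mean. PtrC3H3 (0.288) and PtrCCoAOMT1 (0.312), for a hydroxylase and a methyltransferase of the earlier steps, were closest to PtrCCR2, with 3 and 8 of the 7653 genes closer and a median over all genes of 1.40. PtrHCT1 (0.342) and PtrCCoAOMT1 (0.542) were closest to PtrAldOMT2, with 7 and 45 genes closer and a median of 1.25. For PtrCAD1 the closest named genes were PtrCSE2 and PtrCAld5H2, each at 0.4996, with 919 and 920 genes closer and a median of 0.662. For PtrCAld5H2 they were PtrActin (0.493) and PtrCAD1 (0.4996), with 3742 and 3859 genes closer and a median of 0.498, so PtrCAld5H2 resembled its nearest named genes no more than it did the genes at large. The points share 3 constructs and 3 replicate numbers, so these are descriptions without a test.

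PtrActin, the gene to which the study normalised its ChIP-qPCR, was also measured. Its scaled values were 110 ± 8.07 with PtrHSFB3-1, 94.6 ± 6.78 with PtrMYB092 and 89.7 ± 1.77 with GFP (SD, n = 3 each). It was not called for PtrHSFB3-1 against GFP (log2 fold change 0.29, limma adjusted p = 0.219) or for PtrMYB092 against GFP (0.07, limma adjusted p = 0.865).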

How the data were processed

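RNA-seq libraries of SDX protoplasts were analysed from the gene table that the authors deposited, with 9 columns. Reads had been mapped by the authors with Bowtie 2 to version 3.0 of the poplar genome, while TopHat stands in the submitters' processing notes. How reads were counted, and with which strand setting, was not stated in either source. The deposited values are labelled raw counts but were taken here as a score in whole numbers on an unknown scale: of genes whose values sum to 2 over a pair of libraries, 81.9% to 97.5% had 1 in each over the 36 pairs, where random draws give 50%.

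Values were scaled by TMM (unweighted), put on the log2(value + 1) scale and fitted with limma 3.58.1 in R 4.3.3 in 1 model of the 9 libraries, with a mean for each construct, a variance trend and 6 residual degrees of freedom. A gene was tested if it reached 10, after scaling to the median total, in 3 or more libraries and summed to 15 or more, and p-values were adjusted over all 7653 of them. The script was tested on simulated data. No test on counts was used. The replicate numbers pair the libraries: deviations from the group mean correlated at 0.516 to 0.863 in the 9 pairs of equal number. In the 18 other pairs they correlated at -0.706 to 0.267. The main fit leaves this pairing out, as do all fits with fewer libraries. Fits blocked on that number, with 4 residual degrees of freedom, are therefore given for each late gene and where they change a count. The named genes are the 5 late genes, the other 17 monolignol genes as counts with the 2 largest and 2 smallest changes against GFP, the 2 named genes with the most similar profile, both transgenes and PtrActin. The members and lists were chosen with earlier results of these data known. Alternatives were other scalings, pseudocounts, filters, the block, no variance trend, fewer libraries and the transgenes left out. Names were taken from the paper's tables, since 0 of the 41335 IDs matched the reference table used here, and no coordinates are given. Primer sequences were read from the study's supplementary table. P-values measure the spread between libraries only.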

Additional observations from a re-analysis of the deposited data

How the results depend on the processing

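The direction and call of PtrCCR2 with PtrHSFB3-1 against GFP held in all 21 alternatives, with log2 fold changes of 1.25 to 1.79, and no late gene that was called changed sign in any alternative. The late genes called numbered 1 for PtrHSFB3-1 against GFP in every setting. For PtrMYB092 against GFP they numbered 2, or 3 with the replicate block, 1 to 2 when a library was left out and 0 without PtrMYB092 replicates 2 and 3. For PtrMYB092 against PtrHSFB3-1 they numbered 3, or 4 with the block and every gene above 0 (PtrCAld5H1 being the fourth), 1 to 3 when a library was left out and 1 without PtrMYB092 replicates 2 and 3. That last setting leaves a lone PtrMYB092 library, assumed to vary like the others.

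With the replicate block, which rests on the paired numbers, PtrCAD1 joined the calls for PtrMYB092 against GFP, and the calls over all genes numbered 2079 for PtrHSFB3-1 against GFP (772 without it), 1048 for PtrMYB092 against GFP (380) and 2152 for PtrMYB092 against PtrHSFB3-1 (1098). It changed no other call of a late gene tested. In the same order of comparisons, the calls over all genes numbered 1302, 889 and 2326 with every gene above 0, 414, 182 and 525 at a minimum of 30, and 3032, 1603 and 4091 with the block and every gene above 0. Column totals alone gave 1266 for PtrHSFB3-1 against GFP, and the share of higher calls for PtrMYB092 against PtrHSFB3-1 was then 46.5%, not 31.7%. Leaving out a library gave 220 to 788, 153 to 421 and 460 to 1104. Without PtrMYB092 replicates 2 and 3, PtrMYB092 had 1 call against GFP and 152 against PtrHSFB3-1. The reads behind a value are unknown, so depth cannot be set beside the low values of PtrCAld5H1, and the cause of these shifts was not tested.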

Other observations

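The study's RT-qPCR primers for PtrCCR2 and PtrCCoAOMT1, genes for different enzymes, were close to each other, and they are shown because both genes were measured by those primers. Differing bases are in capitals.
PtrCCR2 forward: cGgtGattcagaaagctggtCtGgA
PtrCCoAOMT1 forward: cAgtAattcagaaagctggtGtTgC
PtrCCR2 reverse: gcatccacaaagatgaaGtcaTaaG
PtrCCoAOMT1 reverse: gcatccacaaagatgaaAtcaAaaC
Over both primers 42 of 50 bases were identical, against at most 21 with any other of the 4 genes whose primers had the same lengths. The RNA-seq values of PtrCCR2 above do not depend on these primers, and which transcript they amplify was not tested.

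Of the late genes, only 3 were among the 22 genes with primers listed for ChIP-qPCR. Each of the 3 shared all 4 primer pairs with a gene of another wall polymer. No other genes on that list shared every primer pair with each other. The pairs listed for PtrCCR2 were those of the gene listed as PtCesA18, the pairs for PtrCAld5H1 those of PtrIRX10-1, and the pairs for PtrAldOMT2 those of PtrCslA2. In RNA-seq, PtrCesA18, PtrIRX10-1 and PtrCslA2 had values of 0 or 1 in all 9 libraries. PtrIRX10-1 was at 1 in all 3 PtrMYB092 libraries and listed at 0 in the PtrHSFB3-1 and GFP libraries. It was under the filter. It was above 0 in the PtrMYB092 libraries alone, so a fit of every gene above 0 cannot test it. The scale of values of 1 against 0 is unknown.

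In PtrMYB092 replicates 1 to 3, PtrCAld5H1 stood at 1, 5 and 12 where the PtrMYB092 transcript stood at 6922, 11036 and 17727. The late genes called higher with PtrMYB092 than with GFP did not have that order. In the same libraries PtrCCR2 stood at 407, 318 and 430 and PtrAldOMT2 at 285, 191 and 219. PtrCAD1, called against GFP only with the replicate block, did not have it either, at 147, 245 and 193 in those libraries. PtrCAld5H2 stood at 15, 38 and 26 there. In replicates 1 to 3 of the other constructs, PtrCAld5H1 stood at 0, 1 and 1 with PtrHSFB3-1 and at 1, 1 and 2 with GFP. The transgene level rose with the replicate number, so level and number cannot be told apart here. Whether any of these genes is related to the level of the transgene was not tested.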
